A study of Mus musculus with 18 samples.

Results

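Genes of white and brown fat cells were followed in the lungs of 18 mice. The set held 10 genes, namely Adipoq, Retn, Lep, Cidec, Plin1, Thrsp, Pck1, Cidea, Cox8b and Ucp1. Each was read from the probe sets that the platform annotation assigns to that gene alone, and where several exist the one brightest on average over the 18 arrays was taken. A probe set was listed for 9 of the 10 genes, and Plin1, a coat protein of the fat droplet, has no value here. Of the 9, 7 passed a filter on low signal (above the 40th percentile of all probe sets on at least 3 arrays) and were tested, out of 18193 genes with a probe set and 13434 genes tested in all.

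Right lung lobes came from female B6C3F1 mice, a hybrid strain, aged 18 weeks after 13 weeks of dosing, with 3 animals and 3 arrays in each of 6 groups. The feed control ate untreated chow, and 3 groups received a chemical in feed on 7 days a week: 1,5-naphthalenediamine (NDA) at 2000 ppm, pentachloronitrobenzene (PCNB) at 8187 ppm, or N-(1-naphthyl)ethylenediamine dihydrochloride (NEDD), again at 2000 ppm. The corn oil control was given the vehicle by gavage at 5 ml/kg on 5 days a week, and the benzofuran group 2,3-benzofuran at 240 mg/kg in that vehicle. The labels call NDA and benzofuran positive and NEDD and PCNB negative as lung carcinogens, and the study asked whether lung transcripts tell the classes apart. Each array was 1 animal, so that the spread includes that between animals, and arrays are named here by group and animal number.

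Fat cells store triglyceride in droplets and secrete hormones such as adiponectin, resistin and leptin. Brown fat cells also burn lipid in mitochondria that carry the uncoupling protein UCP1. In the chest, fat lies around the heart, the mediastinum and the large airways and vessels, so that a dissected lobe can carry some of it, and lung tissue itself has lipid-laden fibroblasts and epithelial cells that share part of the lipid genes. In an extract of whole tissue, fewer cells of a type and less RNA per cell cannot be told apart. The lung markers Sftpc (surfactant protein C, 14.51 to 14.63 on the log2 signal scale) and Scgb1a1 (club cell secretory protein, 14.30 to 14.51) were high on every array.

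Retn, Pck1, Cox8b and Thrsp each rose with Adipoq between animals of the same group, with a slope that passed in limma (adjusted p under 0.05). Cidea and Cidec also rose with it, but their slopes did not pass. The 250 bases before the start sites of Adipoq and of the genes that passed, 5 in all, are shown for that reason. They are RefSeq sequences of build GRCm38.p6, found by symbol for 9 of the 10 genes, printed in the direction of the gene with motif matches in capitals.
Adipoq (chr16:23146286-23146535, plus strand): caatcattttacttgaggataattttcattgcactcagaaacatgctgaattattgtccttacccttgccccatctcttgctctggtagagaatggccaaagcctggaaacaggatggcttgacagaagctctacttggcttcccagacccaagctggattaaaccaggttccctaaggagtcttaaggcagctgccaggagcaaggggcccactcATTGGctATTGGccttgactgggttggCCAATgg
Retn (chr8:3655520-3655769, plus strand): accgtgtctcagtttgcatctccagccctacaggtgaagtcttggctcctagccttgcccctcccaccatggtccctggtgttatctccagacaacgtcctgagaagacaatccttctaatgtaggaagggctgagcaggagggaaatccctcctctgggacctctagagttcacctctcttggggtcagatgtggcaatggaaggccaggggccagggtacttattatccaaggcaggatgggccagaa
Pck1 (chr2:173152823-173153072, plus strand): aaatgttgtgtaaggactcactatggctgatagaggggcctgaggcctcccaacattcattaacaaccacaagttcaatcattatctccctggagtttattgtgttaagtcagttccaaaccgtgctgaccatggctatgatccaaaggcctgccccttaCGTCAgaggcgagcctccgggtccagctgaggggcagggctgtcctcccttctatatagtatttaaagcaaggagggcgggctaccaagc
Cox8b (chr7:140900447-140900696, minus strand): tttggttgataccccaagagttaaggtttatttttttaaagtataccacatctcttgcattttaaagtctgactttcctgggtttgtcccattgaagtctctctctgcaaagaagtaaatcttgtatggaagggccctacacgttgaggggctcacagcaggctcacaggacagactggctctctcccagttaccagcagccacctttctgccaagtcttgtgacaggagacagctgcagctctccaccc
Thrsp (chr7:97417551-97417800, minus strand): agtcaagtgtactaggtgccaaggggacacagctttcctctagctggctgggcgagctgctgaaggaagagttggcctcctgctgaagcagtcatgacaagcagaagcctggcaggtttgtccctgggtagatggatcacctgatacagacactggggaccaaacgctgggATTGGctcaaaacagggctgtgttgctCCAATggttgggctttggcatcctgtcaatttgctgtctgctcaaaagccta
Both strands were searched for 6 short motifs. CCAAT is bound by NF-Y and C/EBP factors. The motif TTGCNNAA is a core of sites for C/EBP factors of fat cells. The letters AGGTCA form part of the sites of nuclear receptors such as PPARG. The letters TGACG form part of the site of CREB. The last pair were an E-box, CACGTG, and the box read by the TATA-binding protein, written TATAAA. Adipoq held 3 matches to the first motif, with their upstream ends 34, 27 and 7 bases before the start, and Thrsp held 2, at 79 and 52 bases. Pck1 held 1 match to the CREB motif, 90 bases before the start. Retn and Cox8b held no match. Over 32851 start sites of all genes, windows of this length held the first motif in 33.8%, the C/EBP core in 9.56%, the nuclear receptor motif in 14.0%, the CREB motif in 17.8%, the E-box in 6.02% and the last in 12.4%. No motif was shared by all 5 windows.

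The levels varied widely between animals on the same treatment. Adipoq spanned 7.6-fold, Thrsp 8.66-fold and Pck1 11.1-fold over the 18 arrays, and for Adipoq all 6 groups overlapped. Corn oil 24 was the highest array for 6 of the 7 genes tested. No gene of the set passed in any plain comparison of group means (limma, adjusted p under 0.05). Thrsp and Cox8b passed for benzofuran once Adipoq was held equal, a step chosen after the values were seen. These were 2 of 6 genes, against 2.48% of all genes, which is no like background, since few other genes follow Adipoq as these do. Both calls were lost when either corn oil 24 or benzofuran 10 was left out.

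Adipoq encodes adiponectin, the most abundant hormone of fat cells. Its log2 signal was 8.63, 9.32 and 7.53 in feed controls 27, 28 and 29, 8.55, 9.10 and 7.38 in NDA 2, 4 and 5, and 8.37, 8.54 and 7.16 in NEDD 12, 14 and 15. It was 8.25, 9.45 and 8.55 in PCNB 16, 18 and 20, 8.38, 10.09 and 8.72 in corn oil 22, 24 and 25, and 8.10, 8.85 and 9.31 in benzofuran 6, 8 and 10. The low arrays (NEDD 15, NDA 5, feed 29) and the high ones (corn oil 24, PCNB 18, feed 28) were each drawn from 3 different groups, and all 6 groups overlapped. Its signal lay between percentiles 68.4 and 94.7 of the array. The order of the group means ran from corn oil control (9.06 ± 0.91, SD, n = 3) through benzofuran, PCNB, feed control and NDA to NEDD (8.02 ± 0.75), and every gap between neighbours, at most 0.32, was smaller than the SD within groups of 0.79.

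Retn encodes resistin, a second fat cell hormone. Its signal was 7.90, 8.19 and 7.28 in the feed controls, 7.61, 8.28 and 6.98 under NDA, 7.73, 7.65 and 7.25 under NEDD, and 7.46, 8.31 and 7.77 under PCNB. It was 7.40, 8.69 and 7.99 in the corn oil controls and 7.01, 7.34 and 7.97 under benzofuran. The highest array was again corn oil 24, and the lowest was NDA 5. Neighbouring group means differed by at most 0.18, against an SD within groups of 0.51.

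Lep encodes leptin, the satiety hormone of fat cells. It lay between 3.33 and 3.91 on all arrays (percentiles 8.68 to 21.2 of the array) and was not tested. With no detection calls used, signals that low are not told apart from background.

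Cidec, a droplet protein of white fat, lay between 5.94 (NDA 2) and 7.13 (corn oil 24). It had the narrowest range of the 7 genes tested, 2.27-fold. Its group means ran from 6.17 ± 0.31 under NDA to 6.65 ± 0.38 under benzofuran (SD, n = 3), with neighbours at most 0.25 apart and an SD within groups of 0.35.

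Thrsp, a nuclear protein that promotes fatty acid synthesis, was 7.65, 8.13 and 7.32 in the feed controls, 7.32, 8.59 and 6.81 under NDA, 7.17, 7.75 and 6.79 under NEDD and 6.59, 7.62 and 7.54 under PCNB. It was 7.52, 9.12 and 7.93 in the corn oil controls and 6.00, 7.17 and 6.71 under benzofuran. All 3 benzofuran arrays lay below all 3 corn oil arrays, and these groups lay apart, in either direction, for 17.4% of all genes. Group means ran from 8.19 ± 0.83 for corn oil to 6.63 ± 0.59 for benzofuran, with neighbours at most 0.61 apart and an SD within groups of 0.66. Another Thrsp probe set followed the one used (r = 0.98 over 18 arrays), and the remaining probe set did not (r = 0.07).

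Pck1, the cytosolic phosphoenolpyruvate carboxykinase that supplies glycerol for triglyceride in fat and glucose in liver, was 5.02, 6.62 and 4.67 in the feed controls, 4.58, 5.22 and 4.22 under NDA, 5.27, 5.62 and 4.55 under NEDD, 4.21, 6.58 and 5.15 under PCNB, 5.16, 7.67 and 4.92 in the corn oil controls and 4.47, 5.84 and 6.25 under benzofuran. It was above the 40th percentile on 10 of 18 arrays, so that its lower values are near background. Corn oil 24, feed 28 and PCNB 18 were the highest, as they were for Adipoq. Neighbouring group means differed by at most 0.47, against an SD within groups of 1.02. Of the other Pck1 probe sets, 1 followed the one used (r = 0.85) and the dimmer one did not (r = 0.15).

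Of the brown fat genes, Cidea, a droplet protein of brown fat, was 5.83, 6.30 and 5.46 in the feed controls, 6.33, 6.88 and 6.40 under NDA, 5.58, 6.18 and 5.64 under NEDD, 5.73, 5.95 and 5.90 under PCNB, 5.67, 7.01 and 5.60 in the corn oil controls and 5.93, 6.73 and 6.85 under benzofuran. All NDA arrays lay above all feed controls, and these groups lay apart, in either direction, for 21.1% of all genes. Neighbouring group means differed by at most 0.41, against an SD within groups of 0.46.

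Cox8b, a subunit of cytochrome c oxidase made in brown fat, heart and skeletal muscle, was 7.77, 8.09 and 7.55 in the feed controls, 7.85, 7.78 and 7.37 under NDA, 7.50, 7.71 and 6.94 under NEDD and 7.88, 8.08 and 7.72 under PCNB. It was 7.70, 8.30 and 7.61 in the corn oil controls and 8.00, 8.23 and 8.63 under benzofuran. Benzofuran 10 was the highest array and NEDD 15 the lowest. The benzofuran mean of 8.29 ± 0.32 stood 0.39 above that of PCNB, the next group, a gap larger than the SD within groups of 0.31, whereas no other neighbouring means of Cox8b differed by that much.

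Ucp1, the defining protein of brown fat, lay between 3.68 and 4.73 on 17 arrays and reached 5.88 on benzofuran 8. That array alone passed the 40th percentile, so Ucp1 was not tested. Benzofuran 8 was not the highest array for any tested gene of the set.

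**Figure D1:**
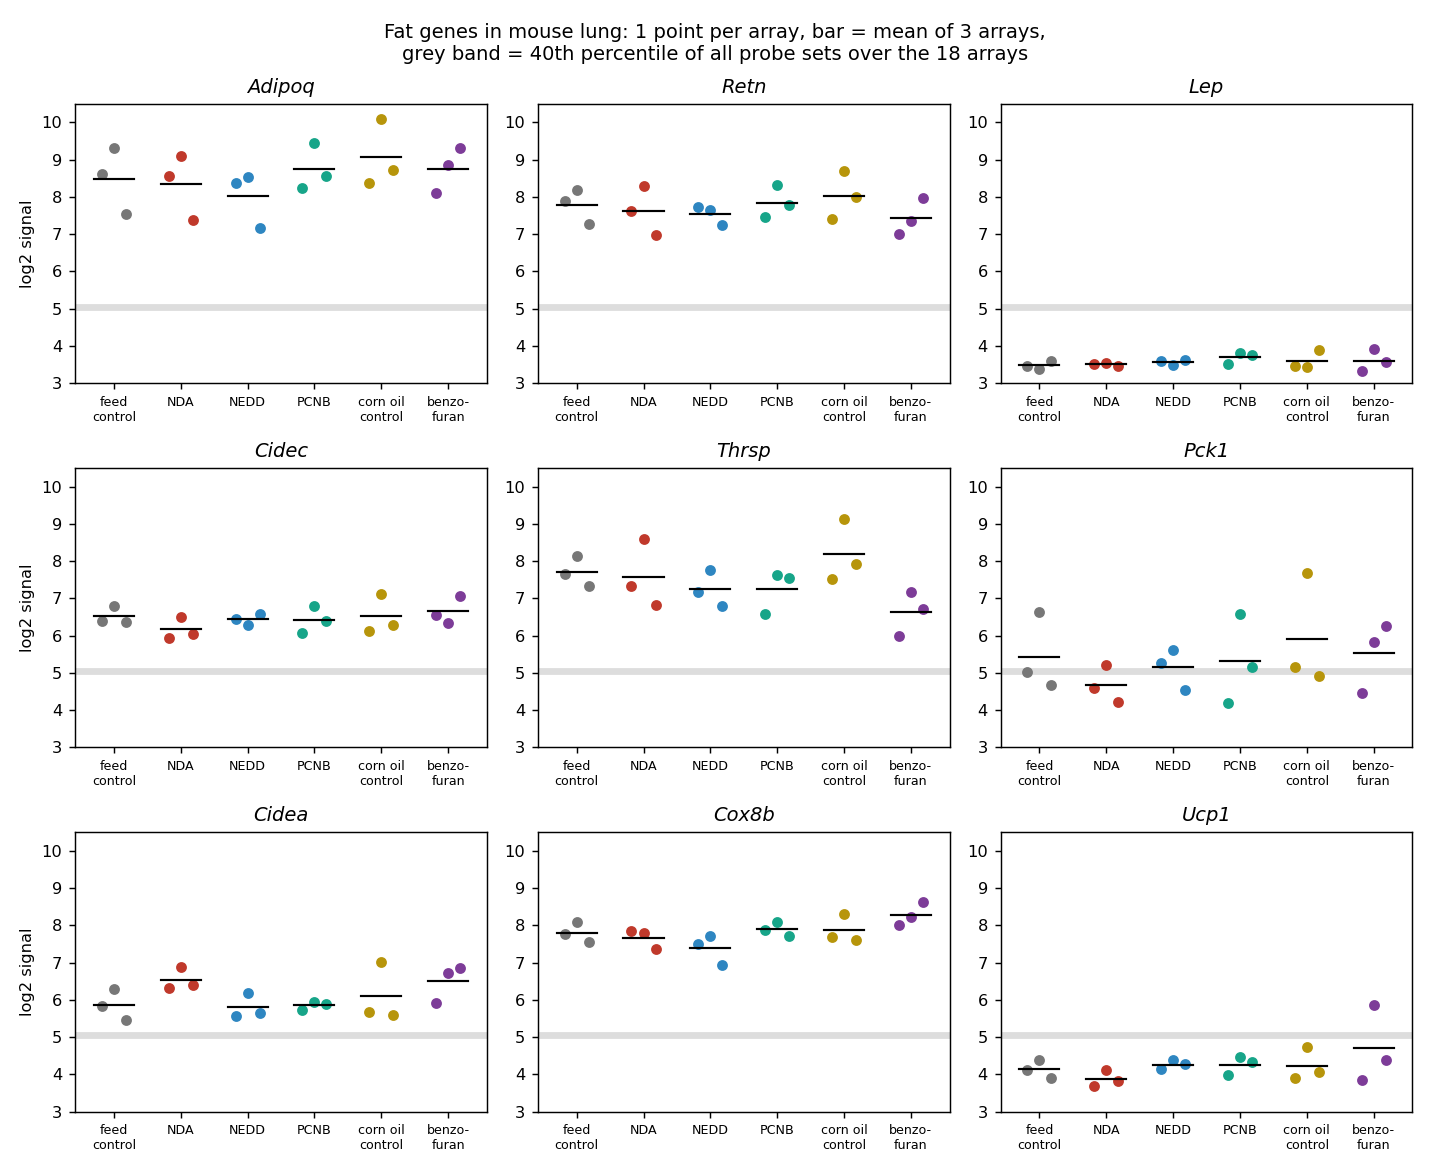
Log2 signal of the 9 measured fat genes (y axis) in the 6 groups (x axis), 1 point per array, with the mean of 3 arrays as a black bar and the 40th percentile of all probe sets on the arrays (4.97 to 5.10) as a grey band. Adipoq, Retn, Thrsp and Cox8b lie well above the band and the points of 1 group spread widely, Lep lies below it throughout, and Ucp1 rises above it on 1 benzofuran array at 5.88.

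The fat genes were among the most variable transcripts between animals of the same treatment. The SD within groups was 1.02 for Pck1, 0.79 for Adipoq, 0.66 for Thrsp, 0.51 for Retn, 0.46 for Cidea, 0.35 for Cidec and 0.31 for Cox8b on the log2 scale. The median over all 13434 genes tested was 0.16 and the 99th percentile 0.47, so that 4 of the 7 genes exceeded the 99th percentile and Cidea lay just under it. Pck1 ranked 6th, Adipoq 17th, Thrsp 34th and Retn 100th. The share of variance between group means was 21.0% for Adipoq, 18.3% for Retn, 17.1% for Pck1 and 21.2% for Cidec, less than for the median gene with 35.3%. The shares were larger for Cidea (39.7%), Thrsp (44.3%) and Cox8b (53.4%). Such a share is positive even where treatment has no effect, since 6 means are fitted to 18 arrays.

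The signal of Adipoq was then set against that of the other genes over the 18 arrays, in a family of 23 relations that also held the means of marker lists and measures of RNA quality. Retn followed it most closely, with Pearson's r = 0.88 and Spearman's rho = 0.88 (permutation test with 100000 resamples, two-sided, p = 1e-05 for both, the smallest the resamples can give, adjusted p = 7.67e-05 and 0.000115). Pck1 gave r = 0.86 and rho = 0.82 (permutation p = 1e-05 and 0.00014, adjusted p = 7.67e-05 and 0.00107). For Cox8b r was 0.80 and rho 0.75 (permutation p = 0.00013 and 0.00055, adjusted p = 0.000747 and 0.00253). Adipoq, Retn and Pck1 were each highest on corn oil 24, and Cox8b on benzofuran 10.

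The relation was looser for the other genes. Thrsp gave r = 0.65 and rho = 0.64 (permutation p = 0.00403 and 0.00568, adjusted p = 0.0132 and 0.0163), and Cidea r = 0.60 and rho = 0.59 (permutation p = 0.00837 and 0.0114, adjusted p = 0.0214 and 0.0263). Cidec gave r = 0.61 (permutation p = 0.00695, adjusted p = 0.02) and rho = 0.50 (p = 0.0372, adjusted p = 0.0713). Ucp1 (r = 0.44, permutation p = 0.0771, adjusted p = 0.136; rho = 0.65, p = 0.00432, adjusted p = 0.0142) and Lep (r = 0.08, permutation p = 0.755, adjusted p = 0.808; rho = 0.06, p = 0.804, adjusted p = 0.804) lay mostly below the filter, and Ucp1 passed by rank only.

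Without corn oil 24 and NEDD 15, the arrays farthest from the median of Adipoq, r was 0.85 for Retn, 0.82 for Pck1, 0.69 for Cox8b and 0.65 for Cidec. It fell to 0.47 for Thrsp (permutation p = 0.0688) and 0.43 for Cidea (permutation p = 0.0929), so that these 2 relations stayed positive but missed a p under 0.05 without those arrays. Once each group's own mean was subtracted, which leaves only differences between animals on the same treatment, r was higher than over all arrays for each of the 8 other genes but Lep. It was 0.95 for Retn, 0.91 for Cox8b, 0.88 for Pck1, 0.86 for Thrsp, 0.79 for Cidea and 0.66 for Cidec (exact permutation within groups, 46656 arrangements, adjusted p between 0.000472 and 0.0331).

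Pairs without Adipoq gave a wider range of values. Retn and Thrsp gave r = 0.81 and rho = 0.75 (permutation p = 6e-05 and 0.00057, adjusted p = 0.00103 and 0.00798 over 28 pairs), and r = 0.73 without the 2 arrays farthest from the median of Retn. Cidec and Pck1 gave r = 0.79 and rho = 0.60 (permutation p = 0.00011 and 0.0105, adjusted p = 0.00103 and 0.0489), and r = 0.65 without the 2 arrays farthest from the median of Cidec. Thrsp and Cox8b, by contrast, gave r = 0.16 and rho = 0.10 (permutation p = 0.516 and 0.682), but r = 0.68 once group means were subtracted. Retn and Cox8b gave r = 0.48 and rho = 0.48 over all arrays (permutation p = 0.0443 and 0.0458, adjusted p = 0.0955 and 0.107) and r = 0.80 within groups. The benzofuran group mean was the lowest of 6 for Thrsp and Retn and the highest for Cox8b.

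**Figure D2:**
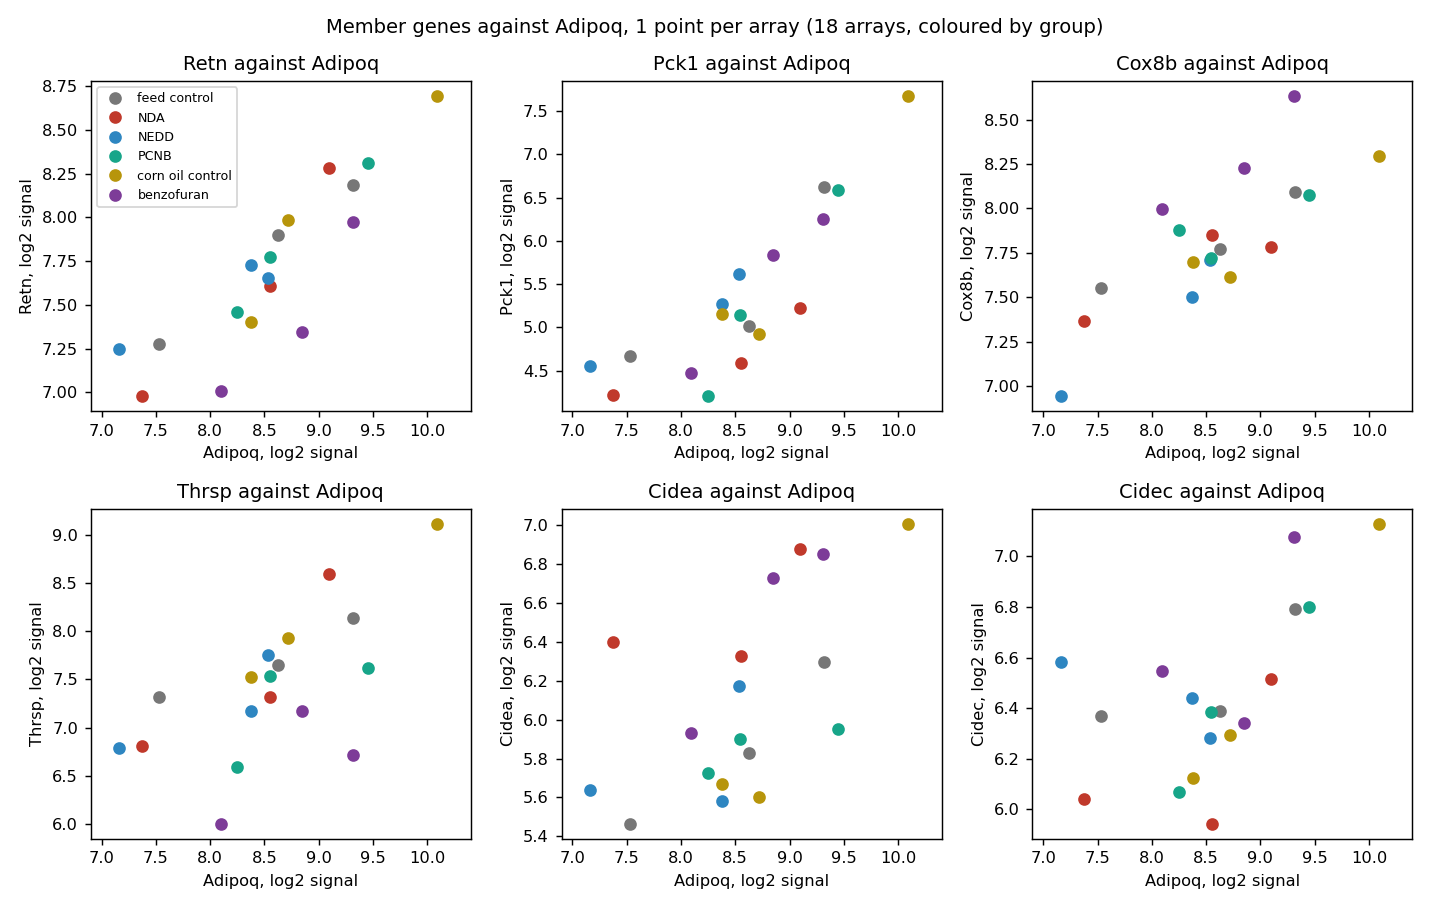
Log2 signal of 6 fat genes (y axes) against that of Adipoq (x axis), 1 point per array, coloured by group. Retn and Pck1 follow Adipoq over the whole range (r = 0.88 and 0.86), and the benzofuran arrays lie low for Thrsp and high for Cox8b at the same Adipoq signal.

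Over all 13433 other genes tested, r with Adipoq had a median of 0.02, and 101 genes, or 0.752%, reached 0.60. Retn ranked 4th, Pck1 10th, Cox8b 15th, Thrsp 68th, Cidec 93rd and Cidea 101st. The 10 genes outside the set that were most like Adipoq were Fabp4 and Car3 (r = 0.97 for both), Mrap and Bpifa1 (0.88), Tmem45b and Mb (0.87), Bpifb1 and Reg3g (0.86), Aoc3 (0.84) and Cdh26 (0.82). Fabp4 is the fatty acid carrier of fat cells and capillary endothelium, Car3 a carbonic anhydrase abundant in fat and muscle, and Mrap the accessory protein of the ACTH receptor, made in fat. Bpifa1, Bpifb1 and Reg3g are secreted by the epithelium of the large airways, and Mb is the myoglobin of heart and skeletal muscle. Car3 ran from 9.77 on NDA 5 to 12.34 on corn oil 24, and Fabp4 from 8.87 on NEDD 15 to 11.22 on corn oil 24. Genes of fat, of the conducting airways and of striated muscle therefore stood side by side at the top of the list.

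**Figure D3:**
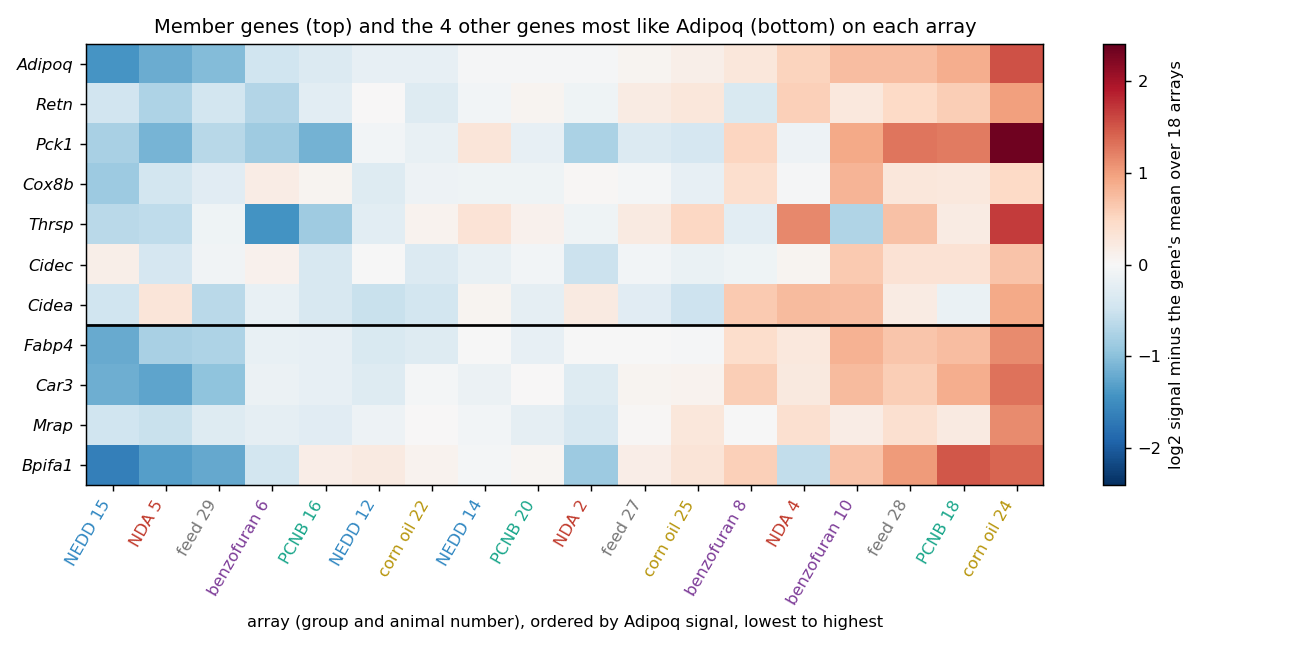
Log2 signal of the 7 tested fat genes (above the line) and of Fabp4, Car3, Mrap and Bpifa1 (below it), each minus its mean over 18 arrays, with arrays ordered from the lowest to the highest Adipoq signal and labels coloured by group. Colours pass from blue to red from left to right in nearly every row, groups are mixed along the order, and Thrsp breaks the order on the benzofuran arrays.

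A model with 1 mean per group and a common slope on Adipoq gave the rise of each gene per doubling of Adipoq between animals of the same group. In limma, 19 of 13433 genes (0.141%) had a slope with adjusted p under 0.05, and all 19 slopes were positive. Pck1, Retn, Cox8b and Thrsp were among them, 4 of the 6 other fat genes. Pck1 rose by 1.14 ± 0.15 (SE) per log2 unit of Adipoq (adjusted p = 0.00172), Thrsp by 0.71 ± 0.11 (adjusted p = 0.00689), Retn by 0.61 ± 0.06 (adjusted p = 7.53e-05) and Cox8b by 0.36 ± 0.05 (adjusted p = 0.00383). Cidea, with 0.46 ± 0.09 (adjusted p = 0.061), and Cidec, with 0.29 ± 0.09 (adjusted p = 0.517), did not pass. The other 15 were the fat genes Car3 (0.83), Fabp4 (0.78), Mrap (0.44) and Adig (0.47, adipogenin), the muscle genes Mb, Nppa, Sln and Pgam2, the airway genes Bpifa1, Bpifb1, Reg3g and Scgb3a1, and Tmem45b, Cdh26 and A2ml1. The slope of Nppa, the atrial natriuretic peptide of heart muscle, was the steepest at 1.43. These genes include ones picked by their correlation with Adipoq on the same arrays, so their slopes are no separate evidence of it.

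Marker lists of tissues that a lobe can carry were set beside Adipoq as list means, all centred per gene. The mean of 20 tested white fat genes outside the set followed Adipoq (r = 0.87, rho = 0.90, permutation p = 1e-05 for both, adjusted p = 7.67e-05 and 0.000115), and so did that of 12 cardiac muscle genes (r = 0.77, rho = 0.69, permutation p = 0.00021 and 0.00195, adjusted p = 0.000966 and 0.00747). The mean of 8 brown fat genes passed by r (0.68, permutation p = 0.00223, adjusted p = 0.00855) and not by rho (0.53, p = 0.0256, adjusted p = 0.0536). That of 3 skeletal muscle genes passed by both (r = 0.58, rho = 0.75, permutation p = 0.011 and 0.00038, adjusted p = 0.0252 and 0.00218). These were the 3 of 9 listed that passed the filter, with r of 0.64 for Ckm, 0.53 for Acta1 and -0.04 for Mylpf. Without corn oil 24 and NEDD 15, r was 0.83 for white fat, 0.62 for cardiac muscle, 0.55 for brown fat and 0.64 for skeletal muscle. Atrial muscle lines the pulmonary veins of the mouse lung. By gene, r with Adipoq reached 0.60 for 8 of 12 cardiac muscle genes, such as Myl4 (0.76), Actc1 (0.74) and Myl7 (0.73), but for 5 of 20 white fat genes and 2 of 8 brown fat genes. Those 2 were Fabp3 (0.71) and Cox7a1 (0.64), which heart muscle also makes, and the median over the 8 was 0.28. The median over the 20 white fat genes was 0.46. The white fat genes Lpl (lipoprotein lipase, -0.13) and Cd36 (a fatty acid transporter, 0.02), which lung cells also make, had mean signals of 11.70 and 12.73 and did not follow Adipoq. Neither did Trarg1 (-0.06), G0s2 (-0.01), Lipe (0.09), Sncg (0.12) and Pnpla3 (0.15), among others. Fabp4, which capillary endothelium also makes, had an r of 0.97.

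The remaining lists did not pass by r. Fatty acid synthesis genes gave r = 0.47 and rho = 0.44 (permutation p = 0.05 and 0.0681, adjusted p = 0.0959 and 0.12). Partners of Pck1 in gluconeogenesis gave r = 0.52 (permutation p = 0.0257, adjusted p = 0.0538) and passed by rho alone (0.60, p = 0.0105, adjusted p = 0.0263). Values of r were 0.25 for macrophages, 0.10 for B cells, -0.02 for lung epithelium and endothelium, -0.07 for mesothelium, -0.14 for thymocytes and -0.19 for liver (rho between -0.15 and 0.28, adjusted p of r between 0.481 and 0.925). The thymocyte mean held only the T cell genes Cd3e, Cd4, Cd8a and Cd8b1, since Rag1, Dntt and Ptcra failed the filter. Among measures of RNA quality, r was 0.23 for the 3' minus 5' signal of the actin control probe sets, -0.21 for the ratio of absorbances and -0.29 for the RNA integrity number, which 15 arrays carry (rho 0.23, -0.12 and -0.38, adjusted p of r between 0.468 and 0.565). What part adhering fat, vein muscle or airway has in the spread of the fat genes was not tested.

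Cox8b followed the lists of both cardiac muscle and brown fat genes. Its closest genes were Fabp3 (r = 0.93), Rdh10 (0.91), and Ckmt2, Mybphl and Cox7a1 (0.90 each). Fabp3 is the fatty acid carrier of heart and brown fat, Ckmt2 the creatine kinase of muscle mitochondria, Mybphl a myosin-binding protein of the atria and Cox7a1 an oxidase subunit of heart, muscle and brown fat. With the cardiac muscle list r was 0.84 (rho = 0.79, permutation p = 2e-05, adjusted p = 0.00072 over 72 relations, r = 0.77 without the 2 arrays farthest from the median of Cox8b) and with the brown fat list, which holds Fabp3 and Cox7a1, r was 0.93 (rho = 0.90, permutation p = 1e-05, adjusted p = 0.00072, r = 0.91 without those arrays). On the cardiac muscle list benzofuran had the highest group mean (0.34) and NEDD the lowest (-0.22), as for Cox8b, while the order of the groups between them differed. Thrsp passed with the fatty acid synthesis list by r (0.74, permutation p = 0.00052, adjusted p = 0.00468) and not by rho (0.56, p = 0.0172, adjusted p = 0.0954) or within groups (r = 0.69, exact permutation p = 0.017, adjusted p = 0.0584), and r was 0.63 without the 2 arrays farthest from the median of Thrsp. Its r with the cardiac muscle list was 0.30 (rho = 0.15, permutation p = 0.219, adjusted p = 0.44). Whether the r of Cox8b and that of Thrsp differ was not tested.

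Treatment effects were then tested with limma, with p-values adjusted over all 13434 genes. Under NDA 0 of the 7 genes passed (1.37% over all genes), and 0 reached an unadjusted p under 0.05 (10.3% over all genes). Cidea was 0.67 ± 0.32 higher (SE, 1.59-fold, adjusted p = 0.486), and over all alternatives tried its adjusted p lay between 0.164 and 0.997. Its arrays did not overlap with the feed controls, as was so for 1 of the 7 genes and for 21.1% of all genes. The other 6 were lower in mean, from Pck1 at -0.76 ± 0.69 to Thrsp at -0.13 ± 0.45, all with overlapping arrays. The median difference over the 7 was -0.15, beside -0.02 over all genes. The 3' minus 5' actin signal was 0.43, 0.33 and 0.33 in NDA 2, 4 and 5. It was 0.58, 0.62 and 0.73 in feed controls 27, 28 and 29, with no overlap. With this signal as a covariate in limma, the Pck1 difference was -0.25 and that of Cidea 0.87 (adjusted p = 0.916 and 0.254).

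Under NEDD 0 of the 7 genes passed in limma (0.0223% over all genes), and 0 reached an unadjusted p under 0.05 (9.44% over all genes). All 7 means were lower than in the feed controls, with a median of -0.29 beside -0.02 over all genes. Adipoq was lower by 0.47 ± 0.54 and Cox8b by 0.42 ± 0.22 (adjusted p = 0.774 and 0.552), and no gene of the set had groups apart, against 19.3% of all genes. NEDD 15, the array with the lowest Adipoq, had the lowest cardiac muscle mean of all arrays at -0.86. Under PCNB 0 of the 7 passed in limma (0.0149% over all genes) and 0 reached an unadjusted p under 0.05 (2.97% over all genes), with 3 means higher and 4 lower and none apart (8.54% of all genes).

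Benzofuran against corn oil gave the largest difference of the set. Thrsp was lower by 1.56 ± 0.45 (2.95-fold, 95% interval -2.51 to -0.61), with no overlap between the groups, but its adjusted p in limma was 0.0804. Over the alternatives it ranged from 0.0134 to 0.451, and without benzofuran 8 it was 0.034. In all, 0 of the 7 genes passed (1.73% over all genes), and 1 reached an unadjusted p under 0.05 (19.5% over all genes). Thrsp was the 1 gene of 7 whose arrays did not overlap, against 17.4% of all genes. Retn was 0.59 ± 0.35 lower, Cox8b 0.42 ± 0.22 higher and Cidea 0.41 ± 0.32 higher (adjusted p = 0.379, 0.309 and 0.511), and Adipoq itself differed by -0.31 ± 0.54, with an interval of -1.44 to 0.82. Corn oil 24, the highest array for 6 of the 7 genes tested, lies in this control group, and without it the Thrsp difference was -1.10 (adjusted p = 0.266). Corn oil 24 was also the highest array for the airway genes Bpifb1 (11.17) and Reg3g (10.78). Benzofuran 10 stood apart from all other arrays on the first principal component of the whole table (-46.6, others -7.8 to 11.8), and without it the Thrsp difference was -1.60 (adjusted p = 0.227). Benzofuran 10 also had the lowest array median (5.678) and the highest 3' minus 5' actin signal. That signal was 0.91, beside 0.40 and 0.35 in benzofuran 6 and 8. With it as a covariate in limma, the Thrsp difference was -1.55 (adjusted p = 0.0589).

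Corn oil against feed control gave 0 of the 7 genes at adjusted p under 0.05 and 0 at an unadjusted p under 0.05 in limma, as 0% of all genes passed (271 had an unadjusted p under 0.05). Adipoq was 0.57 ± 0.54 higher (adjusted p = 1), and no gene of the set had groups apart (7.23% of all genes). In the contrast of the positive with the negative chemicals, each against its own control, 0 of the 7 passed in limma (3.49% over all genes), and 0 reached an unadjusted p under 0.05 (18.8% over all genes). Cidea was 0.58 ± 0.28 higher there (adjusted p = 0.269, 0.0485 without corn oil 24 and between 0.0485 and 0.426 over all alternatives). In the test for any difference among the 6 groups 0 of the 7 passed in limma, against 2.93% of all genes. Cox8b alone had an unadjusted p under 0.05 (F = 3.59, adjusted p = 0.221), as did 15.3% of all genes.

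**Figure D4:**
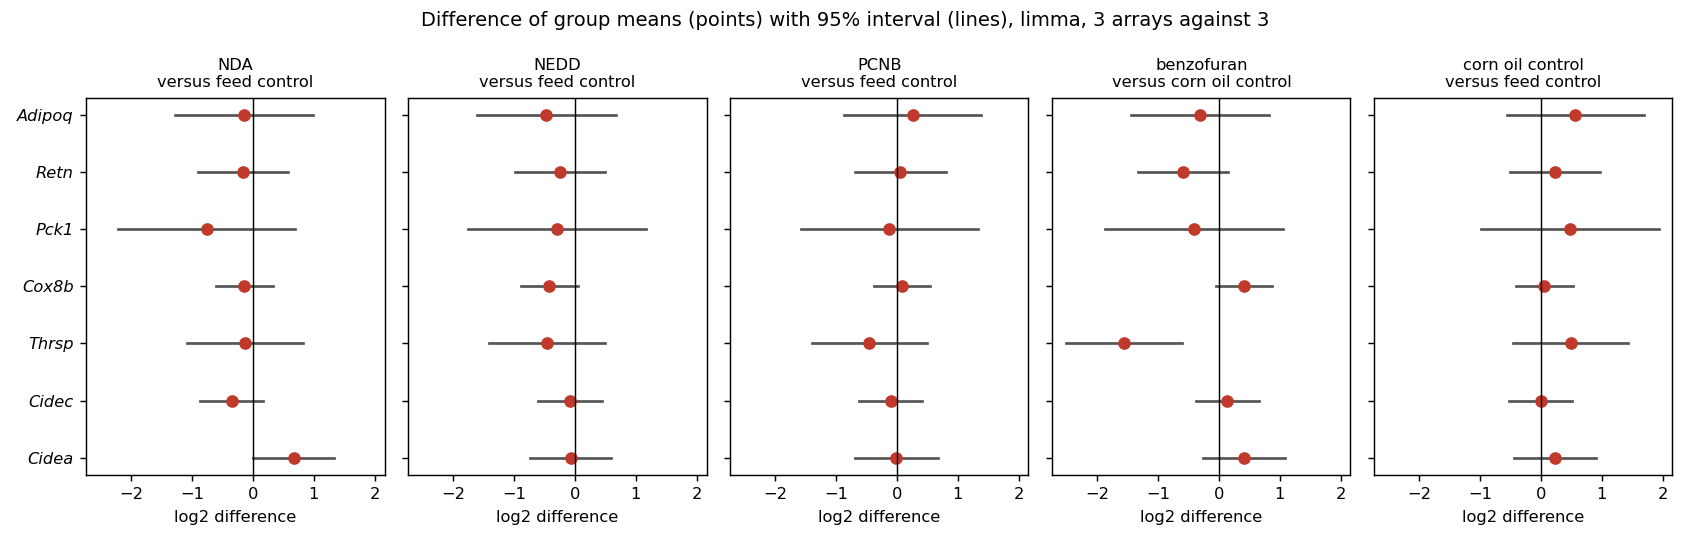
Difference of group means on the log2 scale (x axes, points) with its 95% interval (lines) for the 7 tested fat genes in 5 comparisons, from limma over all 18 arrays. All intervals include 0 but that of Thrsp under benzofuran (-2.51 to -0.61), and that of Cidea under NDA (0 to 1.34) starts there.

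Since Adipoq varied so much within groups, the comparisons were repeated with Adipoq as a covariate. This compares groups at equal Adipoq signal, leaves out Adipoq itself, and assumes that treatment did not change Adipoq. Standard errors shrank, for Retn from 0.35 to 0.14, for Thrsp from 0.45 to 0.25 and for Cox8b from 0.22 to 0.12. Under benzofuran 2 of the 6 other genes then passed in limma, against 2.48% of all genes. The covariate is itself a gene of the set, chosen after the values were seen. Only 0.141% of all genes had a called slope on it, so the share over all genes is no like background. Thrsp was lower by 1.34 ± 0.25 (adjusted p = 0.0116) and Cox8b higher by 0.53 ± 0.12 (adjusted p = 0.0242). Retn was lower by 0.40 ± 0.14 (adjusted p = 0.123), Cidea higher by 0.55 ± 0.21 (adjusted p = 0.152), and Pck1 differed by -0.04 ± 0.34 (adjusted p = 0.962).

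Both calls were lost without single arrays, while the differences kept about their size. Without corn oil 24 Thrsp differed by -1.23 (adjusted p = 0.0553) and Cox8b by 0.56 (adjusted p = 0.0659). Without benzofuran 10 they differed by -1.16 (adjusted p = 0.0727) and 0.44 (adjusted p = 0.125). Cox8b also missed the threshold without corn oil 22 (0.57, adjusted p = 0.0879) and without corn oil 25 (0.46, adjusted p = 0.0544). Over all alternatives it ranged from 0.000569 to 0.0727 for Thrsp and from 0.00168 to 0.125 for Cox8b. With Car3 in place of Adipoq, Thrsp still passed (-1.52, adjusted p = 0.00351) and Cox8b did not (0.44, adjusted p = 0.0797). The cardiac muscle list, whose mean was higher under benzofuran than under corn oil (0.34 and 0.08), moves with Cox8b. Its range was -0.06 to 0.61 in the benzofuran group and -0.25 to 0.59 in the corn oil group, all 12 of its genes were above the filter, and its part in the Cox8b difference was not tested. The mean of the 3 skeletal muscle genes tested, of 9 listed, also moves with Cox8b (r = 0.75, rho = 0.63, permutation p = 0.00033 and 0.00571, adjusted p = 0.00339 and 0.0374). It was 0.20 under benzofuran (range -0.14 to 0.57) and 0 under corn oil (-0.02 to 0.04), with its highest value on benzofuran 10, the highest array for Cox8b, and its part was not tested either.

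At equal Adipoq 0 of the 6 genes passed in limma under NDA (1.43% of all genes called), NEDD (0.00744%), PCNB (0.0149%), corn oil against feed (0%) and in the contrast of classes (3.92%). An unadjusted p under 0.05 was found for 1 of the 6 under NDA, NEDD and PCNB each (1424, 1116 and 400 of all 13433 genes), for 0 in corn oil against feed (310) and for 2 in the contrast of classes (2556). Cidea came closest under NDA, where it was 0.74 ± 0.21 higher (adjusted p = 0.109, between 0.0166 and 0.512 over the alternatives). In the contrast of classes Cidea was 0.63 ± 0.18 higher (adjusted p = 0.0615, between 0.00516 and 0.144) and Cox8b 0.35 ± 0.10 higher (adjusted p = 0.0638, between 0.00555 and 0.141). In the test for any difference among groups 2 of 6 passed, Thrsp (F = 8.82, adjusted p = 0.0175) and Cox8b (F = 6.94, adjusted p = 0.0425), against 2.96% of all genes. That share too is no like background for genes that follow Adipoq.

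**Figure D5:**
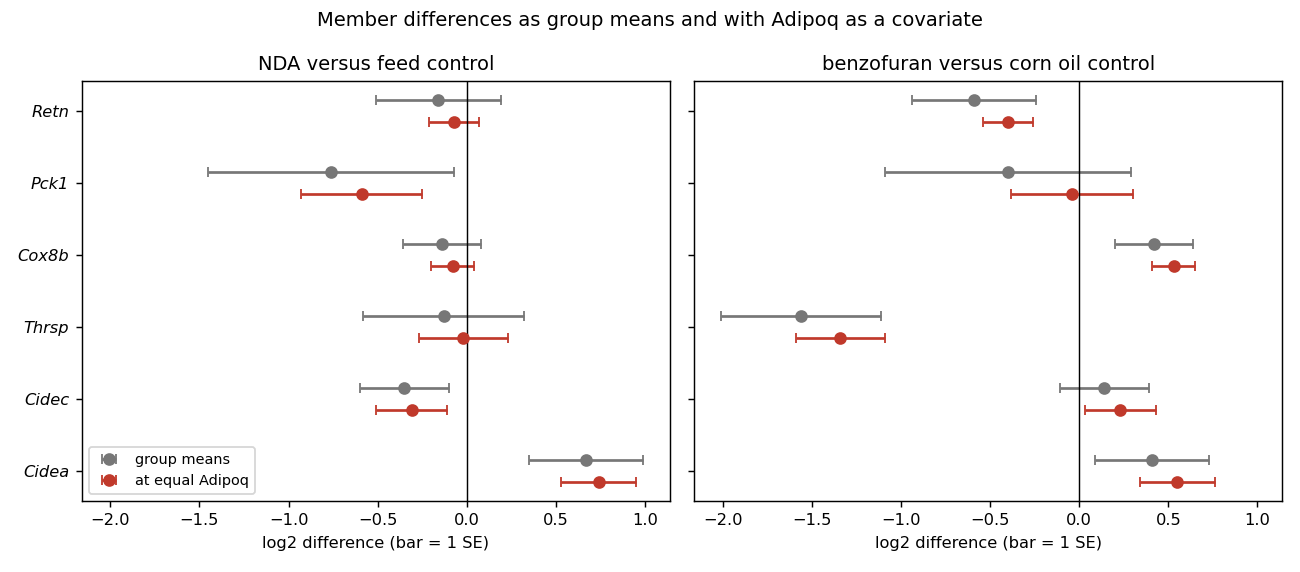
Log2 difference (x axes, bars of 1 SE) of 6 fat genes under NDA and under benzofuran, as a difference of group means (grey) and with Adipoq as a covariate (red). The bars shorten with the covariate, Pck1 moves most under benzofuran (-0.40 to -0.04), and under benzofuran Thrsp stays low (-1.56 and -1.34) and Cox8b high (0.42 and 0.53).

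In the wider gene lists few genes were called. Of 20 white fat genes tested, Sncg (gamma-synuclein) alone was called, higher under NDA (1.37% of all genes called) and in the contrast of classes (3.49%). None of 8 brown fat genes and none of 12 cardiac muscle genes were called in any comparison, though 2 brown fat genes under NDA, 1 under benzofuran and 1 cardiac muscle gene under NDA had an unadjusted p under 0.05 in limma, as did 1 of each list in the test for any difference. Over all genes those shares were 10.3% for NDA, 19.5% for benzofuran and 15.3% for any difference. Of 12 fatty acid synthesis genes, Me1 (malic enzyme, a source of NADPH) was also called higher under NDA and in the contrast of classes. Under benzofuran 0 of those 12 were called (1.73% of all genes), and 4 had an unadjusted p under 0.05, beside 19.5% of all genes. The list's median there was -0.15, beside 0.05 over all genes, and its relation to the Thrsp difference was not tested. The abundant synthesis genes Scd1 (13.18), Scd2 (11.82) and Elovl5 (11.71) had r of 0.15, -0.43 and -0.42 with Adipoq, and Acly, the ATP citrate lyase, had 0.68. Of 6 macrophage genes tested, Marco was called higher under NDA and in the contrast of classes. It was called lower under NEDD, where 0.0223% of all genes were called. Of 8 genes of lung epithelium and endothelium, Foxj1 was called higher in the contrast of classes.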

How the data were processed

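The deposited table holds 1 log2 value per probe set and array (45101 probe sets, Affymetrix mouse whole-genome array), made by the authors. The log2 scale was judged from the range of 2.48 to 14.78, with log base, summary and normalization being not given in the sources used here, so that folds rest on base 2. Total RNA was extracted with Trizol and purified on RNeasy columns, and 10 µg were labelled with biotin, per the labels' protocols.

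Values were used as deposited (array medians 5.678 to 5.803, correlations between arrays 0.9746 to 0.9961, no identical arrays), since scaling moved an array by at most 0.09. The platform annotation gave gene names (34945 probe sets with 1 symbol, 932 with several, which name no gene). The filter on low signal asked for a place above the 40th percentile of the array, on 3 arrays or more. limma 3.58.1 in R 4.3.3 fitted 6 group means to all 18 arrays (12 residual degrees of freedom), two-sided, with Benjamini-Hochberg adjustment over all genes, and the procedure was tested on simulated data. Called means an adjusted p under 0.05. The class contrast is the mean effect of NDA and benzofuran minus that of NEDD and PCNB. Correlations used two-sided permutation tests (100000 resamples, SciPy 1.17.1). Percent of variance is the share between groups.

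The members and lists were chosen with earlier results of these data known. Named outside genes are the 10 most like Adipoq, the 5 most like Cox8b (Ucp1 failed the filter), up to 4 per list by mean signal and any called. Adig, Nppa, Sln, Pgam2, Scgb3a1 and A2ml1 were named after their slopes were seen. Trarg1, G0s2, Lipe and Pnpla3 were named after their r with Adipoq was seen. Alternatives were 2 scalings, 2 filters, the mean of all probe sets, array weights, a trended prior, an actin covariate, only the groups compared, and replicates left out in turn. Precision is limited by having 3 arrays in a group. Animal numbers pair no samples.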

Additional observations from a re-analysis of the deposited data

How the results depend on the processing

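No called value changed sign under any alternative. Counts of the 7 fat genes called stayed at 0 for NDA, NEDD, PCNB and corn oil against feed. They rose to 1 with array weights for benzofuran (Thrsp, -1.99, adjusted p = 0.0134) and for any difference among groups, and ranged from 0 to 1 with single replicates left out for benzofuran and for the contrast of classes. At equal Adipoq, the count under NDA was 1 with array weights and 1 with Car3 as the covariate (Cidea both times), under NEDD 1 with array weights, and under benzofuran 3 with array weights (Retn added, -0.31, adjusted p = 0.0287), 1 with Car3 and 0 to 2 with replicates left out. For the contrast of classes it was 2 with array weights, 1 with the actin covariate, 1 with Car3 and 0 to 1 with replicates left out. For any difference it was 1 with the mean of all probe sets, 4 with array weights, 1 with Car3 and 0 to 2 with replicates left out. The number of fat genes correlated with Adipoq was 6, and 4 without the 2 outermost arrays (Thrsp and Cidea lost). The causes were not tested. No paired analysis was possible because the animal numbers are shared by no 2 groups. Limits are 3 arrays per group, no detection calls, and signals of Lep, Ucp1 and partly Pck1 near the filter.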
